A study of Mus musculus with 4 samples.

Results

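The 35 genes described here carry glucose into the cell, break it down to pyruvate, turn pyruvate to lactate or hold it back from the mitochondria, and include Hif1a, a regulator of that pathway. They were taken from a list of symbols, and each gene's values come from the brightest of its Affymetrix probe sets, by the mean of the 4 arrays. Of the 35 genes 32 were measured, out of 18194 genes in all, and Gpi1, Pfkfb1 and Eno1 were not analysed here. The cells were dendritic cells grown from C57BL/6 mouse bone marrow for 7 days with 10 ng/ml of GM-CSF and as much IL-4, and then selected for CD11c, an integrin chain of dendritic cells. Of the arrays, 2 hold cells given SAHA, written as 500 nm in the labels, for 12 hours, and 2 hold cells given the diluent alone as control. SAHA (vorinostat) inhibits histone deacetylases. All 4 arrays share the strain and the culture, each experiment used marrow from at least 3 mice, and the stated purity was 95%. Replicates are labelled biological, but no separate cultures or mice are named, so p-values reflect array-to-array spread that may be technical.

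Glycolysis splits glucose into pyruvate and yields ATP without oxygen. Dendritic cells are known to raise it when they are activated, and many of its steps can be carried out by more than one isoform, each with its own control. HIF-1, a transcription factor made of an oxygen-regulated alpha chain and a constant partner, is known to switch on glucose carriers and glycolytic enzymes when oxygen is low.

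Across all 4 arrays the deposited log2 values had medians of 5.34 to 5.35, and the 25th percentile of an array lay at 3.94 to 4.04, below which values were treated as dim. The SAHA arrays correlated at 0.995 with each other, the control arrays at 0.993, and arrays of different groups at 0.982 to 0.989 (Pearson's r over the 18194 genes, a description, since genes are not replicates). Of the dendritic cell markers, Itgax (CD11c), Cd74 and H2-Ab1 had values of 12.4 to 14.2 on every array, while Cd209a was low at 4.47 to 4.68. Flt3 and Zbtb46 lay between, at 6.72 to 7.93. None of the 9 measured passed the test, where 2.23% of all genes did. Ciita was higher on both SAHA arrays, with a log2 change of 1.09 (limma adjusted p = 0.0759), where 21.1% of all genes were. Another 3 were lower on both, among them Ccr7 at -0.49 (limma adjusted p = 0.118), and 5 overlapped. All 9 measured neutrophil markers were lower on both SAHA arrays than on both control arrays, where 29.6% of all genes were, and 5 of them passed the test, where 0.709% of all genes passed on the lower side. Summed after undoing the log2 these markers gave 1665 and 1718 units on the SAHA arrays, against 3438 and 3418 units on the control arrays, and none of them was dim on all 4 arrays. No macrophage, T cell, B cell, NK cell, red cell or mast cell marker passed, among 22 measured, although Mertk of macrophages had a log2 change of -0.92 (limma adjusted p = 0.0509). The macrophage markers Csf1r, Cd68 and Cd14 had values of 12.7 to 14.0 on every array. Of 7 measured macrophage markers 4 were lower on both SAHA arrays than on both control arrays, where 29.6% of all genes were, and 3 overlapped. Fewer cells of a type and less RNA per cell cannot be told apart in such bulk samples. The part of neutrophil or macrophage RNA in the results below was not tested.

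With SAHA, Slc2a3, the high-affinity glucose carrier GLUT3, was the 1 gene among the 32 that changed past the threshold, and it rose. None fell. In the same test 2.23% of all genes passed (limma, two-sided, Benjamini-Hochberg adjusted p under 0.05), so the share of glucose genes that passed was near that of genes at large. The median log2 change of the 32 genes was 0.08, against -0.05 over all genes. Counted by whether the arrays overlap, 11 of the 32 had both SAHA values above both control values, where 21.1% of all genes did, and 4 had both below, where 29.6% did. The plot of changes gives every gene in the order of its step.

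**Figure D1:**
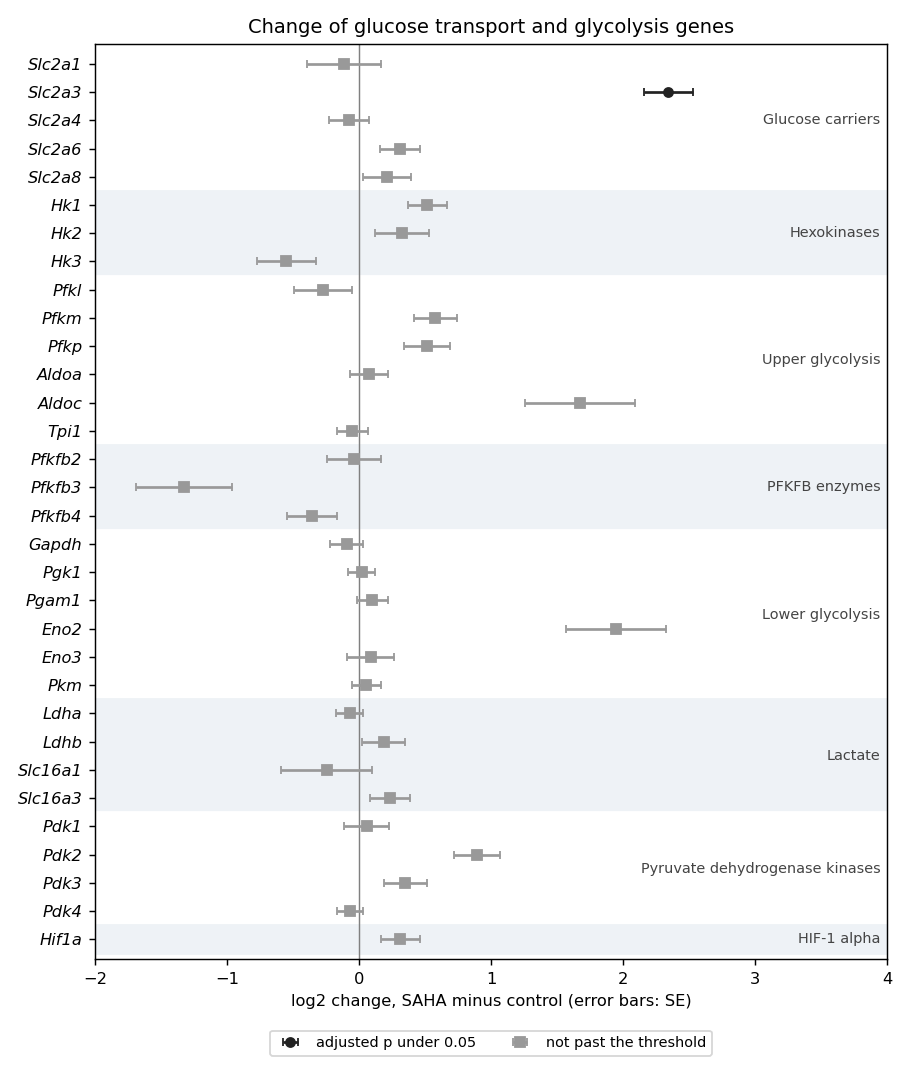
Log2 change, SAHA minus control, of the 32 measured genes in order of their step, with the standard error from limma as bars. The black point is Slc2a3, at 2.34, and grey squares did not pass the threshold. Eno2 at 1.95 and Aldoc at 1.67 lay next highest and Pfkfb3 at -1.32 lowest.

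Glucose enters through carriers of the SLC2A family. Slc2a3 had values of 8.97 and 8.73 log2 units on the SAHA arrays, against 6.69 and 6.34 on the control arrays. The groups lay far apart relative to their spread, and the difference was 2.34 ± 0.19 (log2, SE, n = 2 per group; limma adjusted p = 0.0108), a 5.06-fold rise. Slc2a1 (GLUT1), the carrier found in most cells, had 11.04 and 10.24 with SAHA and 10.97 and 10.54 in control. Its groups overlapped, and the change was -0.11, with a 95% interval of -0.79 to 0.56. Slc2a6, a carrier known from myeloid cells, had 9.58 and 9.39 with SAHA, against 9.26 and 9.09 in control, and its change of 0.31 did not pass (limma adjusted p = 0.344). The intracellular carrier Slc2a8 had a change of 0.21 and Slc2a4, the insulin-responsive carrier of muscle and fat, one of -0.08, both with overlapping arrays. The change of Slc2a3 exceeded that of Slc2a1 by 2.45 on the log2 scale, with a spread of the within-array difference of 0.39 in SAHA-treated and 0.06 in control cells (SD, n = 2 each).

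The 4 probe sets of Slc2a3 did not give 1 size of change. The probe set used above, 1437052_s_at, and 1455898_x_at are of types whose probes can match other transcripts. On 1455898_x_at the values were 7.36 and 6.81 with SAHA, against 5.18 and 4.81 in control, a difference of 2.09, and it also passed when each probe set was tested on its own (limma adjusted p = 0.0210, where 1.11% of probe sets passed). On 1421924_at, which carries no such suffix, they were 5.07 and 4.56 with SAHA, against 4.07 and 4.02 in control, a difference of 0.77 that did not pass (limma adjusted p = 0.113), with 1 control value dim. The fourth, 1427770_a_at, had 4.40 and 3.68 with SAHA and 3.52 and 3.71 in control, with 3 of the 4 values dim and overlapping groups, so no change of it could be read. On the other 3 the differences ranged from 0.77 to 2.34, with no overlap. With the probe sets averaged the change was 1.41 and passed (limma adjusted p = 0.0361).

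**Figure D2:**
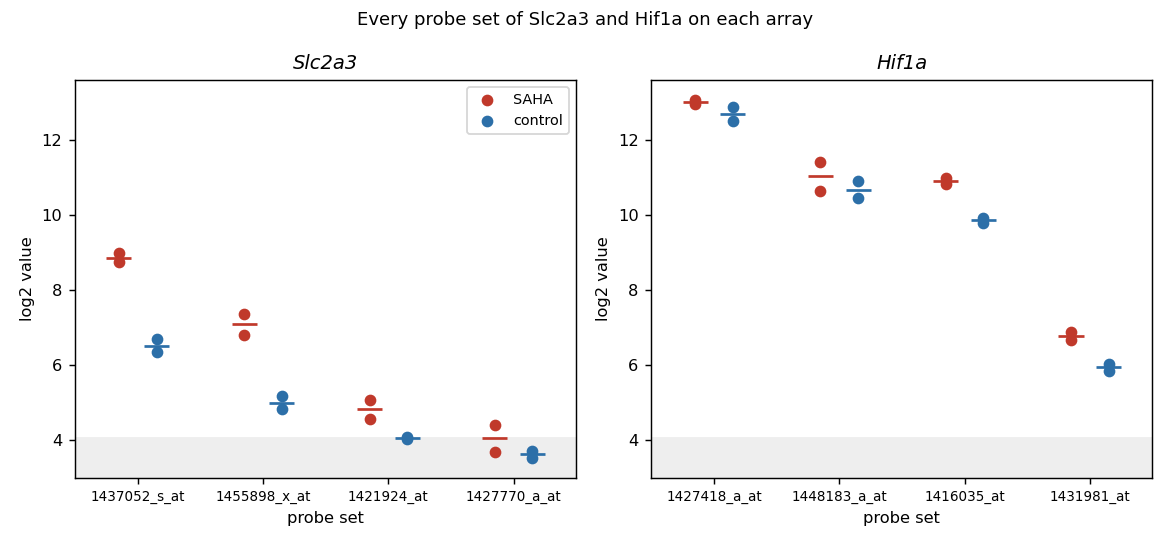
Log2 values of every probe set of Slc2a3 (left) and Hif1a (right) on each array, SAHA in red and control in blue, with a bar at the mean of each pair of arrays. The grey band marks values below 4.04, the highest 25th percentile of the arrays, where the 2 weaker Slc2a3 probe sets begin or lie.

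Hexokinases trap glucose in the cell by phosphorylating it. Hk1, the isoform of most tissues, had 10.79 and 10.53 with SAHA, against 10.17 and 10.11 in control, and its 2 probe sets gave differences of 0.52 and 0.50. The groups did not overlap, but the change did not pass (limma adjusted p = 0.137). Hk2, the inducible isoform, had 10.16 and 10.04 with SAHA and 10.06 and 9.50 in control, with overlapping groups and a difference of 0.32. Hk3, an isoform typical of myeloid cells, lay the other way, at 10.47 and 11.15 with SAHA and 11.33 and 11.39 in control. Its difference of -0.55 did not pass (limma adjusted p = 0.265), and its second probe set gave -0.55 too. The neutrophil markers given above were also lower with SAHA, with a median change of -0.82, and a link between them and Hk3 was not tested.

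Phosphofructokinase commits the sugar to glycolysis. Pfkm, the muscle form, had 7.44 and 7.33 with SAHA, against 6.91 and 6.70 in control, a difference of 0.58, and Pfkp, the platelet form, had 11.97 and 11.66, against 11.48 and 11.12, a difference of 0.51. Neither passed (limma adjusted p = 0.137 and 0.199), although the arrays of both genes did not overlap on the probe sets used. The probe sets of Pfkp differed. On 1430634_a_at the values were 10.63 and 9.74 with SAHA and 10.07 and 10.05 in control, overlapping groups with a difference of 0.12. On 1437759_at the difference was 0.53 with no overlap. The liver form Pfkl had 9.98 and 9.78 with SAHA and 10.45 and 9.85 in control, an overlapping pair of groups with a difference of -0.27. Its 3 probe sets differed in sign, at -0.28, -0.27 and 0.25. Within arrays the change of Pfkm exceeded that of Pfkl by 0.85 and that of Pfkp exceeded it by 0.79, with no overlap between the groups in either case.

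PFKFB enzymes make and remove the small sugar phosphate that activates phosphofructokinase, and Pfkfb3 is the form whose kinase activity dominates. Pfkfb3 had 8.16 and 9.06 with SAHA, against 9.53 and 10.33 in control. No SAHA value reached a control value, and at -1.32 ± 0.36 (SE) it was the largest difference below 0 among the 32 genes, yet it did not pass (limma adjusted p = 0.132). Its second probe set had 7.02 and 7.21 with SAHA and 8.24 and 8.97 in control, a difference of -1.49 that also missed the threshold (limma adjusted p = 0.0547, probe sets tested on their own). Pfkfb4, another hypoxia-inducible form, had 9.32 and 9.06 with SAHA, against 9.75 and 9.35 in control, a difference of -0.36. Pfkfb2, known from heart, had overlapping groups and a difference of -0.04.

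Most genes of the middle and lower steps gave small differences. Aldoa, an aldolase, Tpi1, triosephosphate isomerase, Gapdh, Pgk1, phosphoglycerate kinase, Pgam1, a phosphoglycerate mutase, Pkm, pyruvate kinase, and Ldha, lactate dehydrogenase A, had a mean of 12.4 log2 units or more. Their log2 changes lay between -0.09 and 0.10, with adjusted p-values of 0.688 to 0.939 in limma. For Pgk1 the values were 13.26 and 13.30 with SAHA and 13.31 and 13.21 in control, and the 95% interval of its change was -0.22 to 0.26. Pkm had an interval of -0.21 to 0.32 and Ldha of -0.32 to 0.18, so a 2-fold change either way lay outside each of these intervals. Gapdh was read by a control probe set of the array, with an interval of -0.39 to 0.21.

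Aldoc, the aldolase of brain, had 11.20 and 10.74 with SAHA, against 9.96 and 8.63 in control. Both SAHA values were higher, but the control arrays lay 1.34 apart, and the difference of 1.67 ± 0.41 (SE) did not pass (limma adjusted p = 0.109). The second Aldoc probe set gave 6.23 and 5.09 with SAHA, against 4.92 and 4.21 in control. Eno2, the neuronal enolase, had 7.90 and 7.07 with SAHA, against 6.00 and 5.07 in control, a difference of 1.95 ± 0.38 (SE) that missed the threshold (limma adjusted p = 0.0610). Eno3, the muscle enolase, had 7.65 and 7.53 with SAHA and 7.67 and 7.33 in control, with a 95% interval of -0.34 to 0.52. In a fit without 1 array the group it came from has a lone array, and the spread, taken to hold for both groups, comes from the complete pair alone. Without control replicate 1 the change of Eno2 was 2.41, that of Aldoc 2.34 and that of Pfkfb3 -1.73, and all 3 passed (limma adjusted p = 0.0159, 0.00775 and 0.0462). None of the 3 passed in the other 3 such fits: without SAHA replicate 1 they had 1.53, 1.44 and -0.87 (limma adjusted p = 0.243, 0.412 and 0.486), and without control replicate 2 they had 1.48, 1.00 and -0.92 (limma adjusted p = 0.0743, 0.0775 and 0.270).

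Lactate genes gave small differences. Ldhb, the heart-type lactate dehydrogenase, had 9.62 and 9.42 with SAHA and 9.47 and 9.20 in control. Its 3 other probe sets gave differences of 0.39, 0.24 and 0.23, with both SAHA values above both control values. Tested on their own these probe sets did not pass (limma adjusted p = 0.367, 0.525 and 0.503). The lactate exporter Slc16a3 (MCT4) had 9.97 and 9.72 with SAHA, against 9.66 and 9.56 in control, a difference of 0.24 with no overlap, while Slc16a1 (MCT1) had 7.95 and 7.28 with SAHA and 8.31 and 7.41 in control. None of these 3 genes passed, and the spread of Slc16a1 within each group was larger than its difference of -0.24.

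Pyruvate dehydrogenase kinases switch off the enzyme that admits pyruvate to the citric acid cycle. Pdk2, the broadly expressed form, had 7.84 and 7.55 with SAHA, against 6.71 and 6.90 in control. The groups did not overlap, and the difference of 0.89 ± 0.17 (SE) missed the threshold (limma adjusted p = 0.0614). Pdk3 had 10.03 and 9.74 with SAHA, against 9.43 and 9.63 in control, a difference of 0.35. Pdk1, a known target of HIF-1, had 8.45 and 8.47 with SAHA and 8.57 and 8.23 in control, with a 95% interval of -0.35 to 0.46. Pdk4 was dim on every array, at 3.29 to 3.47, so no change of it could be read.

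**Figure D3:**
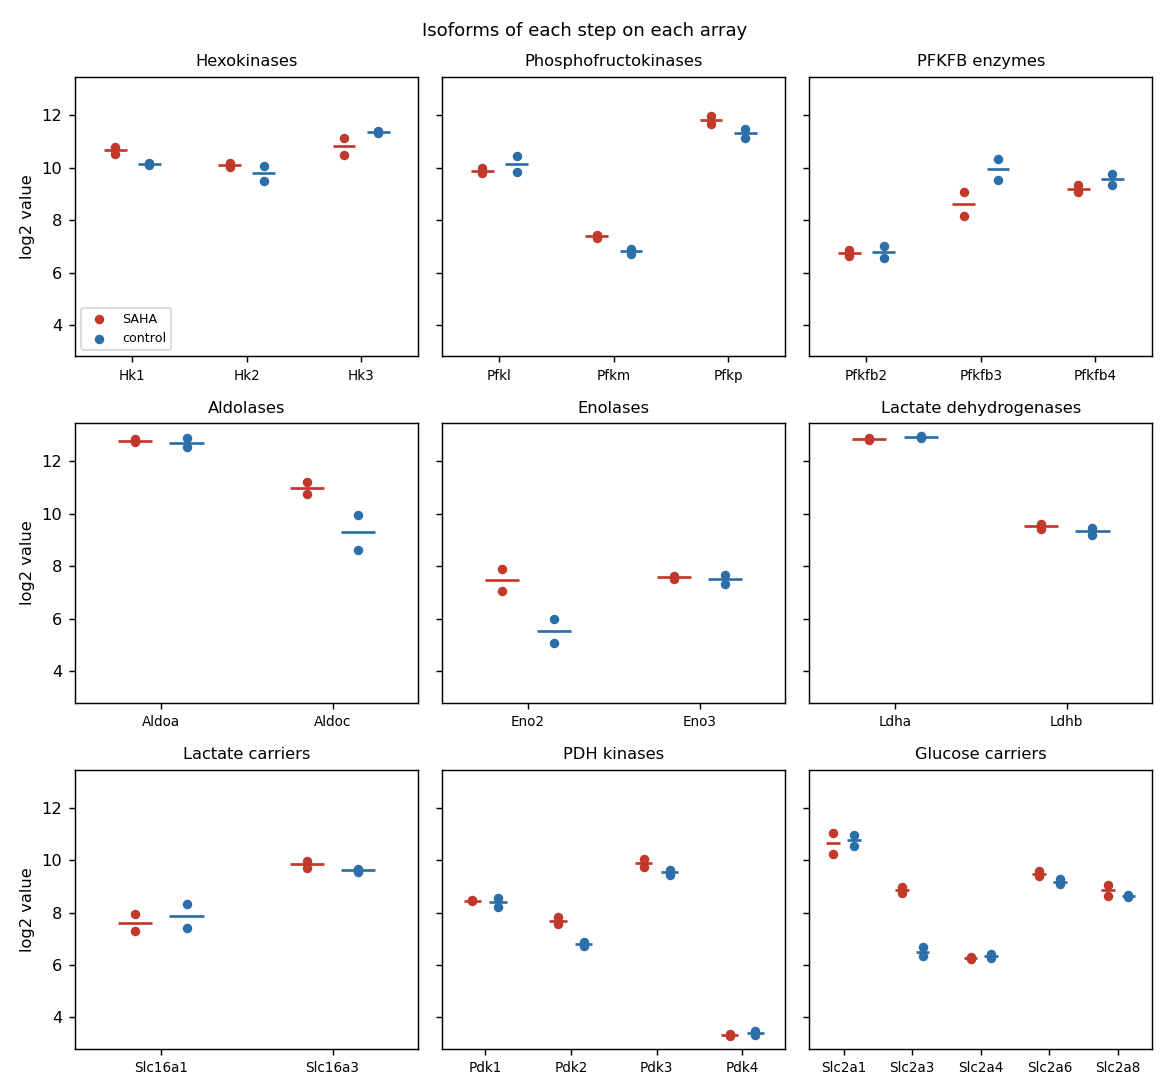
Log2 values of the isoforms of 9 steps on each array, SAHA in red at the left of each gene and control in blue at the right, with a bar at the mean of each pair. Levels of different genes are not comparable on this scale. Slc2a3, Eno2, Aldoc and Pdk2 show both SAHA points above both control points, beside Slc2a1, Eno3, Aldoa and Pdk1, whose points overlap.

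Isoforms of a step were compared by the difference between their changes in 26 pairs from 9 families, leaving out those with Pdk4. In 15 pairs the within-array difference did not overlap between the groups, a count given as a description, since the pairs share genes. The share over pairs of genes at large was not computed, so the count cannot be read as a result about isoforms. With 2 arrays a side an exact two-sided permutation test cannot go below p = 0.333, which is the smallest it can give and the value of all 15 (0.578 after adjustment over the 26 pairs), so no pair could pass. The widest gap was Slc2a3 over Slc2a1, and outside the carriers the widest were Eno2 over Eno3 at 1.86 and Aldoc over Aldoa at 1.60.

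Hif1a encodes the alpha chain of HIF-1. On the probe set used here it had 12.95 and 13.06 with SAHA, against 12.50 and 12.88 in control, a difference of 0.31 that did not pass (limma adjusted p = 0.336). The other probe sets gave 0.35, 0.83 and 1.05. The last, 1416035_at, had 10.83 and 10.97 with SAHA, against 9.78 and 9.92 in control, and it passed when probe sets were tested on their own (limma adjusted p = 0.0317). Among the 4 probe sets, 1448183_a_at alone had overlapping groups, at 11.41 and 10.64 with SAHA and 10.44 and 10.90 in control. Whether Hif1a is called therefore depends on the probe set, and the rule of the highest mean took the one with the smallest difference.

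Of 21 genes of the HIF pathway and its known hypoxia targets 20 were measured, and 4 rose and none fell, where 1.52% of all genes rose in the same test. In 11 of the 20 both SAHA values lay above both control values, where 21.1% of all genes did, and in 6 both lay below, where 29.6% did, so the share below was near that of genes at large. The median log2 change was 0.34, against -0.05 over all genes. The 4 were Egln3, Bnip3, P4ha1 and P4ha2. The list was chosen with earlier results of these data known. It leaves out the 32 glucose genes, among which HIF-1 has known targets too. Of those 32 only Slc2a3 passed, and their median log2 change was 0.08. Egln3, a prolyl hydroxylase that marks HIF alpha chains for destruction and is itself a HIF target, had 8.92 and 8.29 with SAHA, against 6.54 and 6.37 in control, a 4.43-fold rise (2.15 ± 0.23, SE, limma adjusted p = 0.0148). Bnip3, a mitochondrial protein of mitophagy and cell death, had 10.93 and 10.72 with SAHA, against 9.72 and 9.85 in control, a 2.06-fold rise (limma adjusted p = 0.0270). The collagen prolyl hydroxylase subunit P4ha1 had 10.55 and 10.25 with SAHA, against 9.42 and 9.05 in control, a 2.25-fold rise (limma adjusted p = 0.0398). Its relative P4ha2 had 5.24 and 4.87 with SAHA, against 4.15 and 4.02 in control, where 1 value was dim, with a difference of 0.97 (limma adjusted p = 0.0407). With probe sets tested on their own, that of P4ha2 did not pass (limma adjusted p = 0.0531), and those used for Egln3, Bnip3 and P4ha1 did (limma adjusted p = 0.0202, 0.0356 and 0.0496). Second probe sets gave 0.80 for Egln3 and 0.72 for P4ha1, and neither passed. The count depended on single arrays: it was 0 without SAHA replicate 1, 1 (Egln3) without SAHA replicate 2 and 2 (Bnip3 and Egln3) without control replicate 2. Among genes that did not pass, Ankrd37 at 1.15, Ero1a at 0.98 and Vegfa at 0.78 were higher on both SAHA arrays (limma adjusted p = 0.0588, 0.132 and 0.176). Car9, a marker of low oxygen in many tumours, lay on the other side at -0.50, as did Hif3a at -0.53. Neither passed (limma adjusted p = 0.194 and 0.186).

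**Figure D4:**
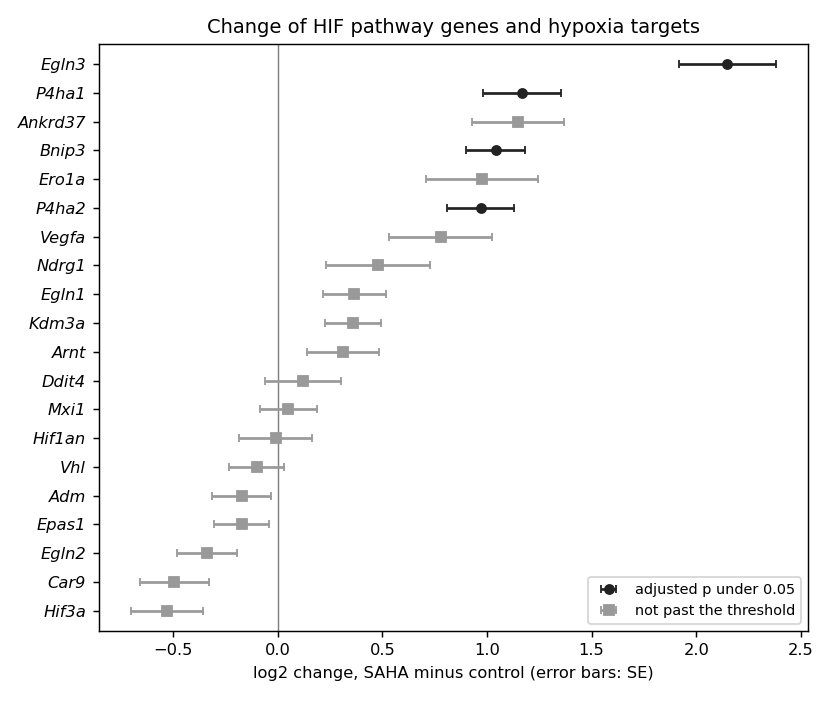
Log2 change, SAHA minus control, of the 20 measured genes of the HIF pathway and its targets, with the standard error from limma as bars. Black points passed the threshold (Egln3, P4ha1, Bnip3 and P4ha2) and grey squares did not. The values run from -0.53 for Hif3a to 2.15 for Egln3.

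HIF sites often hold the core ACGTG. Only this form of the core was searched, so other forms of it are neither marked nor counted. The RefSeq promoters (GRCm38.p6, 250 bases before to 50 after the start, first listed start of each gene) of the 4 genes that rose are shown with that core in capitals on either strand, where it reads ACGTG or CACGT, and Pfkfb3 is set beside them as the glucose gene with the largest difference below 0. Bnip3 lies at chr7:138909457-138909756 (minus strand), P4ha1 at chr10:59323046-59323345 (plus), P4ha2 at chr11:54100674-54100973 (plus), Egln3 at chr12:54203825-54204124 (minus) and Pfkfb3 at chr2:11553880-11554179 (minus).
Bnip3: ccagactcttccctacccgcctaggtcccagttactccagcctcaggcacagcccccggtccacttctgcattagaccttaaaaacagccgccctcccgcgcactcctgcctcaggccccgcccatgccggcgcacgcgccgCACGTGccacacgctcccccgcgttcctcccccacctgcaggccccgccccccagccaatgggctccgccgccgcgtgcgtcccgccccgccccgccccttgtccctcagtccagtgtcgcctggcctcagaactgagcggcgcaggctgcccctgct
P4ha1: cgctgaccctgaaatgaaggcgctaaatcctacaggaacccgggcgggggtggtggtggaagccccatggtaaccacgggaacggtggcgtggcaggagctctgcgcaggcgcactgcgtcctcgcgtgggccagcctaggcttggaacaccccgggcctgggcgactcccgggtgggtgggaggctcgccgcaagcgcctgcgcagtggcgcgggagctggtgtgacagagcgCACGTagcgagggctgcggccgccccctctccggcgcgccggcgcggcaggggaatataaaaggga
P4ha2: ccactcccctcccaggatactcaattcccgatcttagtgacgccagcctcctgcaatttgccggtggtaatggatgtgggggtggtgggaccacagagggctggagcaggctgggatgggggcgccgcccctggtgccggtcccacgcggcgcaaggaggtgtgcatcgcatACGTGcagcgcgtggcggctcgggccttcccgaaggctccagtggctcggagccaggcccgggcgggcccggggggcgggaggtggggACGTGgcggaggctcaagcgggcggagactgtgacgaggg
Egln3: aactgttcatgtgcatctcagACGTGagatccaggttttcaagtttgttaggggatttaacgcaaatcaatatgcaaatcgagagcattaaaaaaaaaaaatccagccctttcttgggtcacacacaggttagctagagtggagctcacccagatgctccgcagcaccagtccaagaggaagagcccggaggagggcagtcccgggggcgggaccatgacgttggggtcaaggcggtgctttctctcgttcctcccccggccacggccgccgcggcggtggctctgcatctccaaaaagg
Pfkfb3: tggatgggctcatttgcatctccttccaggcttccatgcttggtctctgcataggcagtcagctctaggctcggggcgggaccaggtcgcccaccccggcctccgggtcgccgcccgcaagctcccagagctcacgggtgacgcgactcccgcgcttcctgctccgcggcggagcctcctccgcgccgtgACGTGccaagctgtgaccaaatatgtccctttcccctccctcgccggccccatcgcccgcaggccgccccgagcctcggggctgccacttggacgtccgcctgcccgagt
Counted from the start, with bases before it negative, the core begins at -108 in Bnip3, where ACGTG and CACGT overlap in 1 palindrome, at -16 in P4ha1, at -78 and 10 in P4ha2, at -229 in Egln3 and at -60 in Pfkfb3. It was present in 4 of these 4 genes that rose, in 10 of the 18 genes of the hypoxia list with a promoter in the table and in 16 of the 30 glucose genes with one. Of 27025 such windows of all genes, 19.7% held it. Windows were not matched for base composition, and a match is a run of letters and not a site. Ldha and Pgk1, with changes close to 0, also held it, and Eno2 did not. In the hypoxia list Car9 at -0.50 and Egln2 at -0.34 held it, as did Ankrd37 at 1.15 and Ero1a at 0.98. Vegfa at 0.78, Kdm3a at 0.36 and Hif3a at -0.53 did not. No promoter of Slc2a3 was available, so the glucose gene that passed was not searched.

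The routes that branch from glycolysis held no gene that passed, where 2.23% of all genes did. In lists this short, none passing is near that share and cannot be read as a result about these routes. Among 16 further carriers and glycolytic isoforms Txnip, an arrestin-like protein that restrains glucose uptake, had 12.14 and 11.89 with SAHA, against 11.38 and 11.24 in control (0.71, limma adjusted p = 0.0610). Bpgm, which makes the bisphosphoglycerate that regulates haemoglobin, had a difference of 0.51. A list of 11 measured genes covered the entry of pyruvate to the mitochondria and its use there. Of these, Mpc1, a subunit of the pyruvate carrier, had 13.11 and 13.15 with SAHA, against 12.57 and 12.72 in control (0.49, limma adjusted p = 0.0857). The phosphatase Pdp2 had -0.45. Of 9 genes of the pentose phosphate pathway, Prps2, which makes the activated ribose of nucleotide synthesis, had 0.60 and H6pd, its endoplasmic reticulum dehydrogenase, -0.54.

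Glycogen and gluconeogenesis genes gave 14 measured members, and none passed, where 2.23% of all genes did. Gbe1, the glycogen branching enzyme, had 7.21 and 7.60 with SAHA, against 8.31 and 8.38 in control (-0.94, limma adjusted p = 0.0610). Pck2, the mitochondrial enzyme that makes phosphoenolpyruvate, had 8.86 and 8.72 with SAHA, against 8.12 and 7.67 in control (0.90, limma adjusted p = 0.0757), but its change was 0.22 with unsuffixed probe sets alone (limma adjusted p = 0.514). Among 16 regulators of glycolysis, Mlxip, a glucose-sensing transcription factor, had 0.52 and the deacetylase Sirt1 -0.53, with limma adjusted p-values of 0.127 and 0.267. Over these 5 lists and the hypoxia list the counts are those of all genes tested together, and the lists were not tested as sets.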

How the data were processed

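RNA was extracted with Trizol and 6 µg was used for biotin-labelled cRNA, per the labels' protocols. The authors deposited log2 values per probe set for 4 Affymetrix arrays. That the scale is log2 was read from the values (2.59 to 15.0). The submitters' processing notes name R 2.7; their summary and normalization of the probes are not given in the sources. Of 45101 probe sets 34958 had 1 gene symbol, 932 several and 9211 none in the platform annotation, which can be old, and symbols were updated through the Entrez identifier for 34754. Each gene was read by its probe set with the highest mean, which gave 18194 genes.

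The 2 groups were set against each other in R 4.3.3 by limma 3.58.1 (lmFit, eBayes with an intensity trend, no covariate, no filter), with Benjamini-Hochberg adjustment over all genes. Intervals are 95% intervals of the moderated test. Named genes are all members, and of each companion list those past the threshold or the 2 with the largest change. Car9, Mertk, Cd209a, Hif3a, Ankrd37, Ero1a, Vegfa, Egln2, Kdm3a and the markers were named after their values were seen. Gyg1 was read as Gyg, its RefSeq symbol, and promoters of chromosome 18 were left out of the motif count. Members, lists and tests were chosen with earlier results of these data known. The fit was tested on simulated arrays, drawn as independent normal values with each gene's own spread and 200 changed genes in each of 5 draws. There 24.2% of 2-fold and 73.2% of 4-fold changes passed and 2.22% of the calls were false. Deviations of the deposited arrays with the same number correlated at 0.567, so these shares need not hold for them. A gene that did not pass can still have changed. Arrays have no read depth, and 2 per group limits the precision.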

Additional observations from a re-analysis of the deposited data

How the results depend on the processing

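The count of changed genes over all genes, 405, was 402 with quantile normalization, 419 without the intensity trend, 316 after adding 32 on the linear scale, 274 with probe sets averaged and 366 with unsuffixed probe sets alone. Raising values under the 20th percentile to it gave 0 genes in limma (3034 at an unadjusted p under 0.05), and thus 0 glucose genes and 0 hypoxia-list genes; zero variances at the floor enter that fit. A threshold of 0.01 gave 8 genes, with 0 glucose genes and 0 hypoxia-list genes. Leaving out each array in turn gave 31 to 529 genes (31 with SAHA replicate 1 left out, 90 with SAHA replicate 2 left out), 1 to 4 glucose genes and 0 to 5 hypoxia-list genes. In those 4 fits 1 array stands against 2 and the spread comes from the complete group alone. Slc2a3 had a change of 2.17 to 2.51 in them, with a limma adjusted p of 0.00471 to 0.0498. The hypoxia-list count was 3 after adding 32, which lost P4ha2, and 3 with probe sets averaged, which lost P4ha1. With unsuffixed probe sets alone the glucose gene that passed was Hif1a (1.05, limma adjusted p = 0.0229) and not Slc2a3 (0.77, 0.0934).

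With the replicate block, replicate number as a term, 3616 genes passed in limma, 11 of them glucose genes (Slc2a3, Eno2, Aldoc, Pdk2, Pfkm, Pfkp, Hk1 and Hif1a higher, Pfkfb3, Pfkfb4 and Hk3 lower) and 12 hypoxia-list genes. Deviations of same-numbered arrays correlated at 0.567 across genes, but the labels name no culture or day behind a number, so this fit was not used for calls. The alternatives on the hypoxia list and on single companion genes were added after the values were seen. Signs turned only in genes that had not passed, with Eno3 at -0.0031 and Pdk1 at -0.013 under quantile normalization and Pfkl at 0.25 with unsuffixed probe sets alone. Leaving out arrays turned the sign of Slc2a1 (-0.51 to 0.28), Pfkl (-0.58 to 0.031), Aldoa (-0.11 to 0.26), Tpi1 (-0.13 to 0.026), Pfkfb2 (-0.27 to 0.19), Gapdh (-0.23 to 0.044), Pgk1 (-0.032 to 0.071), Pgam1 (-0.0013 to 0.20), Eno3 (-0.085 to 0.26), Pkm (-0.027 to 0.14), Slc16a1 (-0.70 to 0.21), Pdk1 (-0.11 to 0.23) and Pdk4 (-0.14 to 0.0076). Where these settings moved a call, the cause was not tested.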
